A study of Mus musculus with 2 samples.

Results

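The 44 genes described here encode the machinery that copies nuclear DNA. They were taken by symbol, from a list ordered by role, out of 43346 annotated genes measured in primary mouse megakaryocyte-erythroid progenitors (MEP), blood-forming cells that produce the red cell lineage and megakaryocytes, the source of platelets. All 44 symbols had a row in both libraries. The cells are labelled adult female C57BL/6J, 5 weeks of age, with no treatment or allele named, and a label gives them as lacking CD34. There was 1 group with 2 biological replicates, which are separate biosamples under 1 donor identifier. Whether that identifier stands for 1 mouse or for the strain is not stated, so the SD between the libraries may not hold the spread between animals. Poly(A)-selected RNA was sequenced in paired ends, and the total of expected counts was 79539452 for replicate 1 and 65305315 for replicate 2. With 1 group there is no comparison between conditions and no p-value, so genes are compared with each other within the libraries and the spread is the SD between the 2 libraries.

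DNA is copied once per cell cycle in an ordered series of steps. In G1 phase the origin recognition complex (ORC), Cdc6 and Cdt1 load the ring of Mcm2 to Mcm7 onto DNA, a step called licensing, and geminin (Gmnn) holds Cdt1 in check once S phase has begun. Cdc45 and the GINS complex join the ring to form the active helicase. Polymerase alpha with primase lays primers, polymerase epsilon extends the leading strand and polymerase delta the lagging strand, held on DNA by the sliding clamp Pcna, which the RFC complex loads. Replication protein A (RPA) covers the exposed single strands, and Fen1 and Lig1 join the lagging-strand pieces. Many of these genes are known targets of E2F transcription factors, which act at the passage from G1 into S phase, and early blood progenitors are known to divide often.

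The promoter sequences show 1 feature that crosses these roles. RefSeq promoter windows on GRCm38.p6, from 250 bases before to 50 bases after each annotated start, were at hand for 36 of the 44 genes (45 promoters, since some genes have several starts). They were searched on both strands for 4 exact forms of the E2F motif, TTTCGCGC, TTTGGCGC, TTTCCCGC and TTTGCCGC. At least 1 form was present in 17 of 45 promoters (37.8%), which belong to 16 of 36 genes. The share was 2.26% over all 32851 promoters of the table and 4.26% over 10251 promoters of protein-coding genes detected in both libraries, whose median GC content (61.3%) equalled that of the members (61.3%). By gene, the share was 44.4% for the members, 2.60% over all genes of the table and 5.15% over detected protein-coding genes. The following windows show examples from the licensing, helicase, polymerase and clamp loader genes, 5′ to 3′ on the gene's own strand, with the matched bases in capitals. A form that lies on the other strand reads as its reverse complement. Mcm5 (chr8:75109336-75109387, plus strand) and Mcm6 (chr1:128359725-128359835, minus strand) are helicase genes whose capitals hold 2 forms that overlap on opposite strands. Mcm6 has a further form nearer its start.
Mcm5: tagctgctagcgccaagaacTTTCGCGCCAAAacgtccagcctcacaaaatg
Mcm6: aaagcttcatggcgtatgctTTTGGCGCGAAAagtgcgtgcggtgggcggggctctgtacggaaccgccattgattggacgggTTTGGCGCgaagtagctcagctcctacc
The licensing genes Orc1 (chr4:108579407-108579453, plus strand) and Cdc6 (chr11:98907993-98908040, plus strand) carried a form before the start. In Cdt1 (chr8:122568036-122568064, plus strand) it lay after the start.
Orc1: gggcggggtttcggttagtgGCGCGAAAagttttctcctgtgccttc
Cdc6: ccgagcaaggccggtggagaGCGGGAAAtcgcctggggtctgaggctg
Cdt1: ggaactaccttTTTGGCGCcatggcgcaa
The helicase partner Gins3 (chr8:95633498-95633545, plus strand), the polymerase alpha gene Pola1 (chrX:93632266-93632313, minus strand) and the clamp loader gene Rfc3 (chr5:151651209-151651238, minus strand) also carried a form before the start.
Gins3: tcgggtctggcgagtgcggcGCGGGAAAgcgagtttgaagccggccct
Pola1: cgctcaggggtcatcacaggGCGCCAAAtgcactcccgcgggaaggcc
Rfc3: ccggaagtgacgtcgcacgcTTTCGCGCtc

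Across the roles, a form was found in 4 of the 5 Mcm2 to Mcm7 genes in the table (Mcm3, Mcm5, Mcm6 and Mcm7), in both loading genes (Cdc6 and Cdt1) and in 2 of 6 ORC genes (Orc1 and Orc3). Among the polymerases it was found in Pola1, Pold1, Pold3, Pole2 and Pole4. The remaining matches were in Gins3, Rfc3 and Lig1. Gmnn, Mcm4, Gins1, Gins2, Gins4, Prim2, Pole and Rfc2 had no window at hand and were not searched. No form was found in the promoter of Pcna or in those of Rpa1, Rpa2 and Rpa3, which says only that these letters are not in these windows. There were 22 distinct matches, of which 13 lay before the start, at positions from -10 to -165 relative to it, and 9 lay after it. A match in Pole4 falls in the windows of 2 of its starts and is counted once here. TTTCCCGC was found in 10 promoters (22.2%, against 1.07% of all), TTTCGCGC in 6 (13.3%, against 0.323%), TTTGGCGC in 6 (13.3%, against 0.514%) and TTTGCCGC in 0 (0.441% of all). Over the promoters of detected protein-coding genes the shares were 2.21%, 0.732%, 1.03% and 0.488% in that order.

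The related genes of the pathway, 72 genes in 9 lists described at the end, had a form in 9 of 63 promoters (14.3%). The core of the NF-Y motif, CCAAT, was in 53.3% of the members' promoters, in 37.4% of those of detected protein-coding genes and in 37.4% of all. TTTGAA or TTCGAA, letters of the cell cycle homology region, were in 15.6% of the members' promoters, between the 13.4% of detected protein-coding genes and the 19.2% of all. Genes with an E2F form had nearly the same median gene level in these cells as those without. The median TPM (transcripts per 1000000, a level scaled for transcript length and library size) was 39.2 for the 16 genes with a form and 39.1 for the 20 without. The TPM of protein-coding transcripts alone was not compared in this way. A match is a description of letters, not of a bound site.

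**Figure D1:**
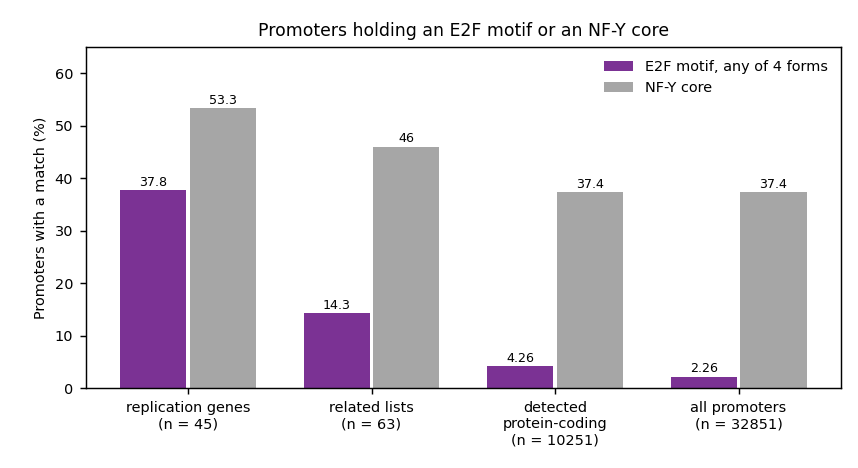
Bars give the percentage of RefSeq promoter windows with any of the 4 E2F forms (purple) or CCAAT (grey) in 4 sets of promoters, with the number of promoters under each set. The E2F share is 37.8% in the replication genes, 4.26% in detected protein-coding genes and 2.26% in all promoters. The CCAAT share is 53.3%, 37.4% and 37.4% in that order.

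All 44 genes were detected in both libraries. A TPM of 1 or more in each was reached by 44 of 44 members, against a background of 46.9% of protein-coding genes. The members' median TPM was 32.1 in replicate 1 and 34.1 in replicate 2, and that of the detected protein-coding genes was 15.9 and 16.9. Of the 44, 31 lay above the median of the detected genes. The range was wide, 502-fold from Orc5 at 1.50 ± 0.262 (SD, n = 2) to Pold2 at 756 ± 45.3. The 5 highest members, Pold2, Cdt1, Pold1, Mcm2 and Mcm3, lay between percentiles 94.1 and 98.4 of the detected genes and held 61.1% and 58.3% of the members' summed TPM. In bulk RNA, fewer cells of a type and less RNA per cell cannot be told apart. Expected counts ran from 76 for Rpa3 to 60507 for Mcm2.

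**Figure D2:**
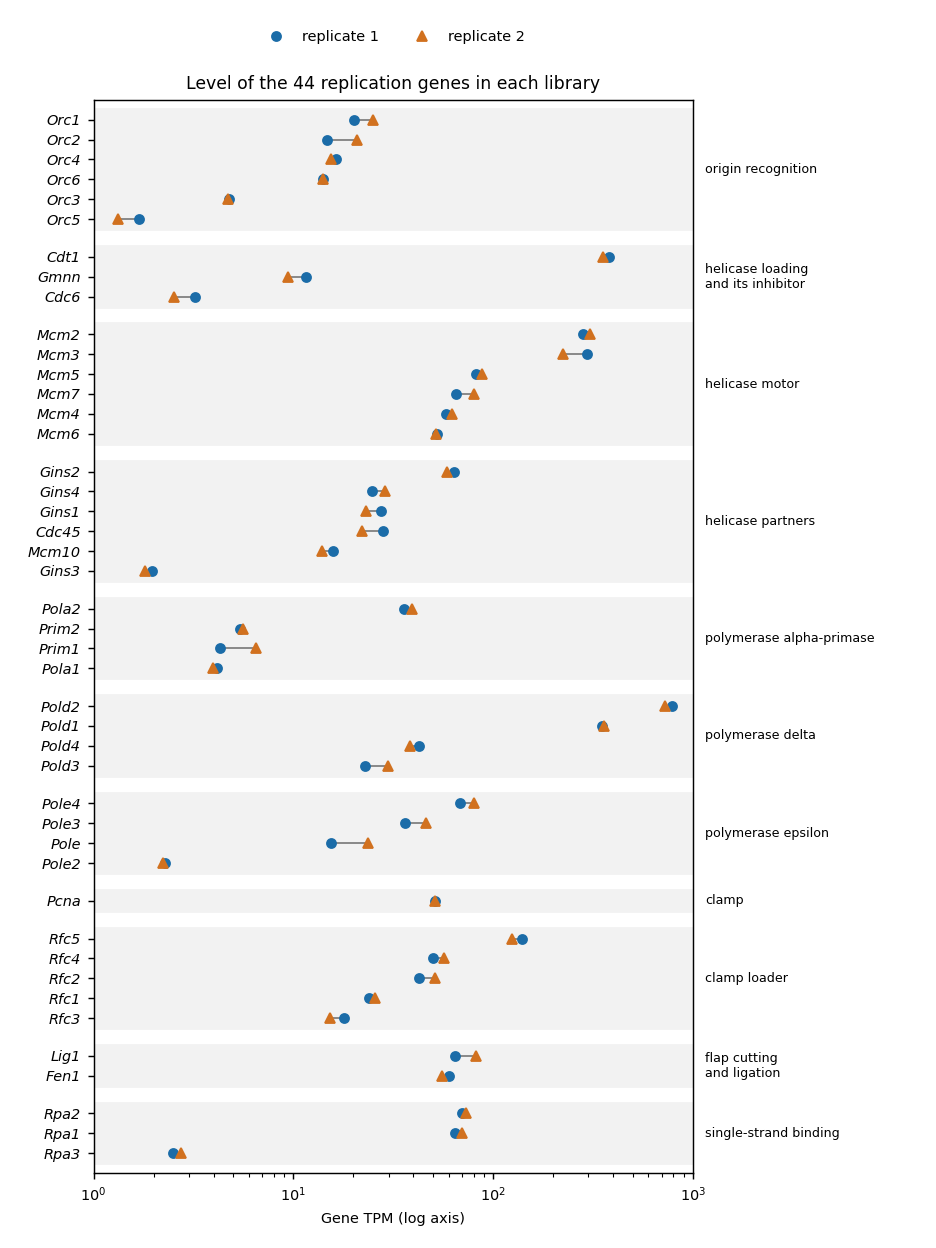
Each row is 1 of the 44 genes, grouped by role, with gene TPM on a log axis in replicate 1 (circles) and replicate 2 (triangles), joined by a line. The libraries lie close together for most genes, while members of the same complex, such as Rpa3 (2.62) and Rpa2 (71.6), lie far apart.

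The 4 classes of genes differed in their middle level. The median TPM of the 9 licensing genes (ORC, Cdc6, Cdt1 and Gmnn) was 14.1 in both libraries. It was 55.3 in both for the 12 helicase genes (Mcm2 to Mcm7, GINS, Cdc45 and Mcm10). The 12 polymerase genes had medians of 29.4 and 34.1, and the 6 genes of the clamp and its loader 46.1 and 51.1. On the scale of log2(mean TPM + 1), with the mean taken over both libraries, the helicase median exceeded the licensing median by 1.92, the clamp and loader median by 1.73 and the polymerase median by 1.11. The helicase median exceeded the polymerase median by 0.81. Within the single libraries, where the medians can fall on other genes, these differences were 1.89 and 1.90, 1.64 and 1.78, 0.98 and 1.20, and 0.69 and 0.92 in that order, lower value first. Each difference was larger than the gap between its single-library values, but classes overlap throughout. The licensing, helicase and polymerase classes each contain both scarce and abundant members. The clamp and loader class ran from 16.6 (Rfc3) to 132 (Rfc5) in mean TPM. With the TPM of protein-coding transcripts alone, a reading added after seeing the data, helicase minus licensing was 1.56 and helicase minus polymerase 0.49, and the order of the helicase (medians 31.9 and 37.2) and the clamp with its loader (42.4 and 50.4, without Rfc1) was the other way round.

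Among the licensing genes, no ORC gene exceeded 25.17 TPM in either library, and the loader Cdt1 stood far above its partners. Orc1, an ATP-binding subunit whose level is known to follow the cell cycle, was at 20.20 TPM in replicate 1 and 25.17 in replicate 2. Orc2 was at 14.80 and 20.96, Orc4 at 16.35 and 15.46, and Orc6 at 14.06 and 14.13. Of these 4, Orc1 was highest and Orc6 lowest in both libraries, and Orc2 and Orc4 changed places. Orc3, a further core subunit, was lower, at 4.74 and 4.69, and Orc5 was the lowest of all members, at 1.69 and 1.32. The Orc1 level rested on a short transcript: Orc1-203, a processed transcript of 679 bases, held 87.9% and 86.0% of it, and the protein-coding transcripts alone gave 2.45 and 2.87 TPM. Orc2 and Orc4 also rested on short transcripts, of protein-coding type. Orc2-205, of 370 bases, held 50.5% and 67.9% of Orc2, and Orc4-209, of 383 bases, held 69.5% and 62.1% of Orc4.

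Cdt1 (chr8:122568015-122573554 in GENCODE M21 on GRCm38, plus strand), which brings the Mcm2 to Mcm7 ring to ORC, was at 379.72 and 356.38 TPM from a single annotated transcript. Its inhibitor Gmnn was at 11.59 and 9.46, and Cdc6, the ATPase that works beside Cdt1, at 3.23 and 2.54. The order of these 3 genes was the same in both libraries, with wide gaps. Cdt1 exceeded Gmnn 35.1-fold (log2 ratio of TPM 5.13 ± 0.14, SD, n = 2) and Cdc6 128-fold (log2 ratio 6.87 in replicate 1 and 7.13 in replicate 2). The Cdt1 counts, 51501 and 38533, were the second highest of the members in both libraries, after Mcm2. The Cdt1 and Mcm2 TPM values lay outside the authors' own TPM intervals in both libraries. The authors also gave a posterior mean TPM, and whether the intervals belong to that estimate is not stated.

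The helicase motor genes were all above the median of the detected genes. Mcm2 (chr6:88883474-88898780, minus strand) was at 283.01 and 304.87 TPM and Mcm3 at 294.08 and 225.13. Mcm5 followed at 82.47 and 88.34, Mcm7 at 65.18 and 80.36, Mcm4 at 58.31 and 62.16, and Mcm6 at 52.36 and 51.65. Although the ring holds 1 copy of each, 8 of the 15 pairs were called unequal, and all 8 were Mcm2 or Mcm3 against the other subunits. A pair was called where the TPM ratio exceeded 2-fold on average, had the same direction in both libraries and had separate intervals in each. The share called was 53.3% here, below the 75.6% of all pairs of detected protein-coding genes. Mcm2 exceeded Mcm4 4.88-fold (log2 2.29 ± 0.01) and Mcm6 5.65-fold (2.50 ± 0.09), and these ratios were 4.88 and 5.66 with protein-coding transcripts alone.

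Mcm3 depended on its transcripts. A retained-intron transcript of 716 bases, Mcm3-203, held 75.2% of its level in replicate 1 and 66.3% in replicate 2, and its coding transcripts gave 59.5 and 75.5 TPM. On that scale Mcm3 lay among the other subunits, 1.27-fold below Mcm5 where the gene TPM had placed it 3.01-fold above. Mcm2 then exceeded Mcm3 4.38-fold, so Mcm2 alone stood above the other 5. The coding level of Mcm7 was 35.6 and 45.5. Exons of Mcm7 overlap those of Cops6 (111.67 and 113.07 TPM) and Ap4m1 on the opposite strand, and whether counting used strand is not stated. In all, exons of 17 members overlap those of another gene, 13 of them on the opposite strand.

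The helicase partners had a lower median (26.1 and 22.6 TPM against 73.8 and 84.3 for the motor genes) and ranged 32.5-fold, where the motor genes ranged 5.65-fold. Cdc45, which joins the ring at origin firing, was at 28.23 and 22.15 TPM, and Mcm10, a factor that helps the helicase start, at 15.86 and 13.86. Of the GINS subunits, Gins2 was at 63.81 and 59.03, Gins4 at 24.86 and 28.89, Gins1 at 27.42 and 23.11, and Gins3 at 1.97 and 1.81. Gins3 was the low member in both libraries, and 5 of 6 GINS pairs were called (83.3%, against 75.6% of all gene pairs). Gins2 exceeded Gins3 32.3-fold (log2 5.02 ± 0.01), and 6.35-fold with coding transcripts alone. Gins4 and Gins3 each have 1 annotated transcript, and Gins4 exceeded Gins3 14.1-fold (log2 ratio of Gins3 to Gins4 -3.82 ± 0.24). Exons of Gins2 overlap the opposite-strand gene Gse1, itself at 327.98 and 486.58 TPM, and the part of that overlap in the Gins2 level was not tested.

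The 3 replicative polymerases were listed at unlike levels. Polymerase alpha-primase had the lowest median, 4.86 and 6.05 TPM. Its catalytic subunit Pola1 was at 4.15 and 3.94, the primase subunits Prim1 at 4.32 and 6.53 and Prim2 at 5.39 and 5.58, and the regulatory subunit Pola2 at 35.90 and 39.51. Pola1 was lowest in both libraries, and Prim1 and Prim2 changed places. Pola2 stood 9.29-fold above Pola1 (log2 ratio of Pola1 to Pola2 -3.22 ± 0.15), and both are almost wholly protein-coding in these tables, at 99.7% or more.

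Polymerase delta was the highest, with medians of 197 and 199 TPM. Pold2 (chr11:5872180-5878292, minus strand), an accessory subunit, was at 788.15 and 724.03 and was the most abundant of the 44 genes. The catalytic subunit Pold1 was at 350.68 and 358.53, the small subunit Pold4 at 42.57 and 38.48, and Pold3 at 22.88 and 29.74. Pold2 exceeded Pold3 28.9-fold (log2 4.86 ± 0.35) and Pold1 2.13-fold. Most of the Pold2 level came from Pold2-202, a processed transcript of 342 bases that held 81.7% and 78.5%, and its coding transcripts gave 144 and 148 TPM. The coding level of Pold1 was 154 and 170, a lower bound in that 25.6% and 22.7% of its level came from transcripts absent from GENCODE M21. On the coding scale the 2 subunits were 1.11-fold apart, and Pold2 still exceeded Pold3 22.2-fold.

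Polymerase epsilon lay between, at medians of 25.8 and 35.0 TPM. The histone-fold subunits Pole4 and Pole3 were at 68.54 and 80.75 and at 36.19 and 46.24, and the catalytic subunit Pole at 15.48 and 23.76. Pole2, the second subunit, was at 2.27 and 2.23. The order was the same in both libraries. Pole4 exceeded Pole2 32.9-fold (log2 ratio of Pole2 to Pole4 -5.04 ± 0.19), a value that stayed at 32.9-fold with coding transcripts alone. A short coding transcript of 747 bases, Pole-203, held 55.8% and 63.5% of the Pole level, whose longest coding transcript has 7163 bases.

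Pcna, the sliding clamp, was at 51.52 and 51.06 TPM, a spread of 0.325. It was the only member whose expected counts were not whole (4670.29 and 3683.88), so some of its reads were divided with other genes and its level is uncertain to that extent. The loader subunits ranged 7.96-fold. Rfc5 was at 140.19 and 124.42, Rfc4 at 49.89 and 56.57, Rfc2 at 42.39 and 51.13, the large subunit Rfc1 at 23.98 and 25.80, and Rfc3 at 18.00 and 15.23. Rfc5 was highest and Rfc3 lowest in both libraries, and 7 of 10 loader pairs were called (70.0%, against 75.6% of all gene pairs). Pcna stood 2.57-fold below Rfc5 (log2 ratio -1.36 ± 0.11).

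With coding transcripts alone, the range of the loader subunits widened from 7.96-fold to 74.3-fold, without Rfc1. Rfc4-202, a transcript of 416 bases annotated for nonsense-mediated decay, held 88.9% and 90.2% of Rfc4, which left 5.55 and 5.57 TPM. A retained-intron transcript, Rfc3-204, held 64.8% and 60.2% of Rfc3, which left 1.26 and 1.49. Rfc2 has 1 transcript and kept 42.4 and 51.1, and Rfc5 had 109 and 95.5. A short coding transcript of 772 bases, Rfc5-202, held 71.7% and 72.9% of Rfc5. For Rfc1, 97.5% of the level in replicate 1 came from transcripts that GENCODE M21 does not hold, so no coding level is given.

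Fen1, which cuts the flaps of lagging-strand pieces, was at 60.58 and 55.68 TPM, and Lig1, the ligase that seals them, at 64.83 and 82.63. They differed 1.26-fold with gene TPM, below the 2-fold rule. With coding transcripts alone Lig1 was at 18.1 and 20.9, and Lig1-207, a processed transcript of 2968 bases, held 71.0% and 71.7% of the gene level. On the coding scale the order turned and Fen1 exceeded Lig1 2.98-fold. Of the RPA subunits, the large one, Rpa1, was at 64.44 and 70.36, Rpa2 at 70.22 and 73.00, and the small one, Rpa3, at 2.51 and 2.73. With gene TPM Rpa1 and Rpa2 differed 1.06-fold, under the 2-fold rule, whereas Rpa3 lay 27.3-fold below Rpa2 (log2 ratio of Rpa2 to Rpa3 4.77 ± 0.05). Rpa2-202, a retained-intron transcript, held 86.6% and 88.5% of Rpa2, and the coding levels of Rpa2 were 7.23 and 5.44, so that Rpa2 lay 2.39-fold above Rpa3 and 3.30-fold below Rpa1 on the coding scale. Rpa3 had the fewest counts of the members, 88 and 76.

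Unequal subunits were no more frequent than unequal genes in general. Over 8 complexes, 44 of 67 subunit pairs (65.7%) were called, and the same rule called 75.6% of all pairs of detected protein-coding genes. By complex, the calls were 9 of 15 in ORC, 8 of 15 in the Mcm2 to Mcm7 ring, 3 of 6 in polymerase alpha-primase, 5 of 6 in each of polymerases delta and epsilon and in GINS, 7 of 10 in RFC and 2 of 3 in RPA.

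Short and non-coding transcripts held much of the level of many members. The most abundant transcript was of a type other than protein-coding in each library for 12 of 43 genes (27.9%), against a background of 16.9% of detected protein-coding genes. These were Orc1, Orc3, Mcm3, Gins2, Mcm10, Pold2, Pold3, Rfc3, Rfc4, Lig1, Rpa1 and Rpa2. Among those not yet given, the coding levels were 1.89 and 1.22 TPM for Orc3, 12.1 ± 1.59 (SD, n = 2) for Gins2, 3.93 and 5.39 for Mcm10, 6.38 and 6.74 for Pold3 and 19.7 and 21.8 for Rpa1. For 15 of 43 (34.9%) the most abundant transcript was under 50% of the length of the longest coding transcript, against 21.8%. TPM divides reads by transcript length, so a read assigned to a short transcript adds more TPM than one assigned to a long transcript. The same transcript was the most abundant in both libraries for 40 of 44 genes, the exceptions being Gins1, Gins2, Prim1 and Rfc1. At the other end, 19 genes took over 99% of their level from coding transcripts in both libraries, among them Cdt1, Gmnn, Mcm2, Mcm4, Mcm5, Mcm6, Cdc45, Gins3, Gins4, Pole2, Rfc2 and Rpa3, and their levels are nearly the same on both scales.

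**Figure D3:**
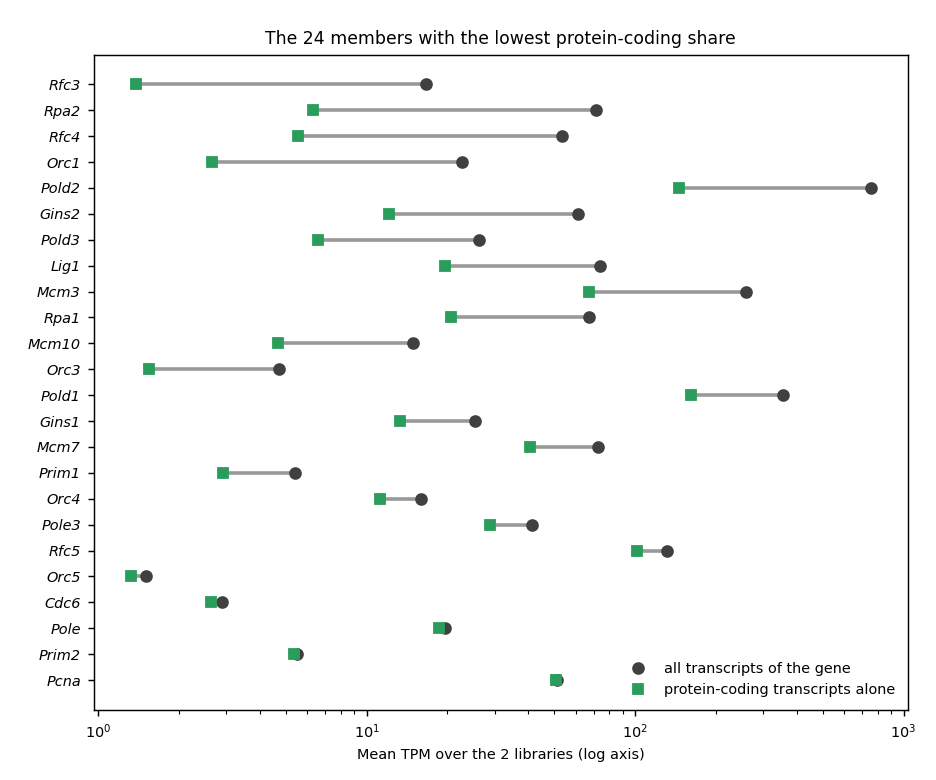
The 24 members with the lowest protein-coding share, ordered by that share, with the mean TPM of all transcripts (dark circles) and of protein-coding transcripts alone (green squares) on a log axis. The gap is widest for Rfc3 (16.6 and 1.38) and Rpa2 (71.6 and 6.33), and it closes for Pcna (51.3 and 50.6). Rfc1 is not shown.

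The replication genes lay close together in the 2 libraries. A gene was called apart when its log2 CPM (counts per 1000000 after TMM scaling) differed by more than 1 and its TPM intervals were separate. None of the 44 was called (0), against a background of 2.34% of protein-coding genes higher in replicate 1 and 2.09% higher in replicate 2. The members' median difference in size was 0.13 on the log2 scale, that of all protein-coding genes tested was 0.25, and that of genes in the members' range of counts was 0.22. The rule compares 1 library with 1 library and is not a test.

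Within that small spread, 27 of 44 members (61.4%) were higher in replicate 1, against a background of 50.9%. Taken by TPM the count was 21 of 44 (47.7%), against 40.0% of the same protein-coding genes. With separate TPM intervals required too, 10 of 44 (22.7%) were higher in replicate 1, against 19.9% of protein-coding genes. In replicate 2 it was 12 of 44 (27.3%), against 32.6%. By role, on the CPM scale and by direction alone, 8 of 9 licensing genes and 9 of 12 helicase genes were higher in replicate 1. For the polymerase genes it was 5 of 12, and for the clamp and its loader 3 of 6. Orc2, Orc6, Mcm4 and Mcm5, counted here in replicate 1, were higher in replicate 2 by TPM. The largest difference toward replicate 1 was that of Cdc6, with 777 and 475 counts (log2 CPM difference 0.48, 1.40-fold). It was 0.46 for Cdc45, 0.39 for Gmnn and 0.34 for Rfc5. Toward replicate 2 it was largest for the catalytic polymerase epsilon gene Pole, at -0.30, and for Prim1, at -0.28. Mcm2, Mcm4 and Mcm5 differed by 0.01 or less in size. Mcm3 differed by 0.11 in log2 CPM although its TPM was 294.08 and 225.13, and the share of its short transcript also differed, as given above.

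**Figure D4:**
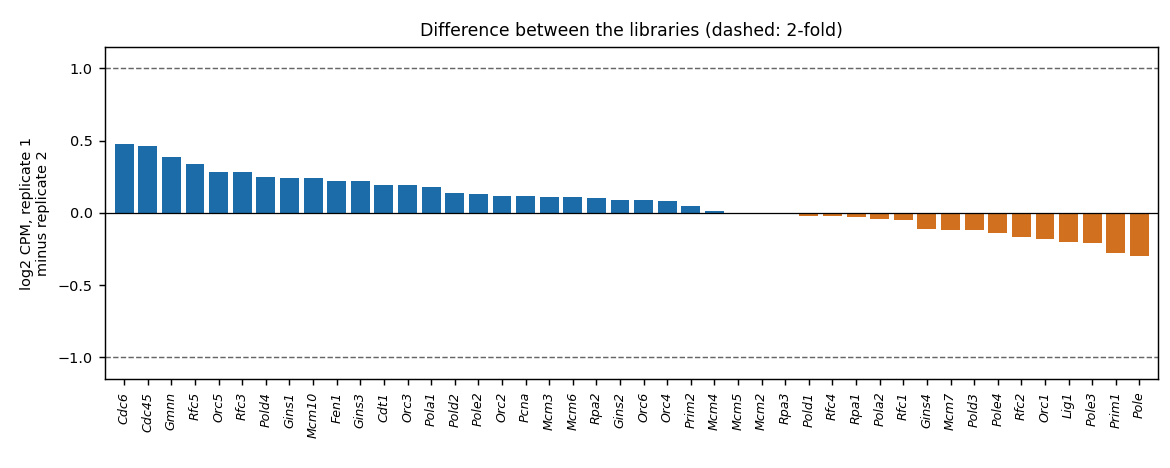
Bars give log2 CPM in replicate 1 minus replicate 2 for each of the 44 genes, sorted, with dashed lines at a 2-fold difference. All bars lie between -0.30 (Pole) and 0.48 (Cdc6), inside the lines.

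Markers of several blood cell types stood apart between the libraries by the same rule. Called higher in replicate 1, against the background of 2.34%, were 3 of 12 granulocyte and monocyte markers, 3 of 6 B cell markers, 1 of 6 T and NK cell markers and 3 of 10 immediate early and heat shock genes. Called higher in replicate 2, against 2.09%, were 2 of 6 stem and multipotent progenitor markers and 1 of 10 erythroid markers (Hbb-bs, a beta-globin gene). The 12 granulocyte and monocyte markers were all detected, summed to 32838 TPM in replicate 1 and 19011 in replicate 2, and 11 of 12 were higher in replicate 1. The 10 erythroid markers (8 detected) summed to 1192 and 2084, most of it from the globin genes Hba-a1 (497.79 and 878.42 TPM) and Hbb-bs (279.99 and 713.16). By log2 CPM, 7 of the 10 were higher in replicate 2 and 3 in replicate 1, with a median difference of -0.18. The 8 megakaryocyte markers (6 detected, with the platelet collagen receptor gene Gp6 at 0) summed to 170 and 296. The 6 B cell markers (all detected) summed to 86.0 and 34.8, and the 6 stem and multipotent progenitor markers (4 detected) to 97.6 and 182. The 6 T and NK cell markers summed to 35.5 and 18.9. Only 1 of these 6 was detected, the called marker Nkg7, at 34.29 and 17.30 TPM. The 10 immediate early and heat shock genes (all detected) summed to 10018 and 5733. The granulocyte and monocyte sum exceeded the erythroid sum in both libraries, against the cell label. Most of that sum came from Mpo, Prtn3 and Elane. The median granulocyte and monocyte marker was at 341 and 344 TPM, and the median erythroid marker at 64.0 and 80.0. The part of other cells in the replication gene levels was not tested.

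The other genes of the pathway, 72 genes in 9 lists, were detected in 67 cases with a median TPM of 10.7 and 11.9. They give the setting of the members' levels. Among the origin firing kinases and factors (12 of 12 detected), the cyclin gene Ccna2 was highest at 92.4 ± 9.19 (SD, n = 2), while Cdc7, the kinase that triggers the loaded ring, was at 5.19 ± 0.403. In the licensing turnover list (7 of 7), Skp2, a subunit of a ubiquitin ligase that acts on Cdt1, was lowest at 2.80 ± 1.01. Of the fork protection and checkpoint list (12 of 12), Timeless was at 48.3 ± 14.1 and the checkpoint kinase genes Atr and Chek1 at 2.88 ± 0.898 and 2.35 ± 0.714.

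Beside Pcna and its loader, the ribonuclease H2 genes Rnaseh2c (456 ± 43.6) and Rnaseh2a (329 ± 0.997) lay near the level of Pold1 (355 ± 5.55). A further ribonuclease H2 gene was far lower, at 18.5 ± 0.226, and the clamp unloader gene Atad5 was at 2.88 ± 0.325. All 10 genes of that list and all 4 topoisomerase genes were detected, with Top1 at 87.1 ± 1.70 and Top2a at 20.9 ± 4.96. The relatives of Mcm2 to Mcm7 were far lower than the ring itself, with Mcm9 at 3.62 ± 0.488, Mcm8 at 2.54 ± 0.622 and Mcmdc2 at 0.205 ± 0.276. Bypass and repair polymerases were detected in 8 of 12 cases, from Poln at 0.0650 ± 0.0354 to the repair polymerase gene Polb at 32.5 ± 0.962. The mitochondrial polymerase gene Polg was at 47.4 ± 1.91, and all 6 mitochondrial replication genes were detected. The histone chaperone gene Asf1b was at 201 ± 32.5 and Chaf1b, of the chromatin assembly factor, at 81.2 ± 10.3, with 6 of 6 detected. Between libraries, 2 related genes were called, both higher in replicate 1 (Skp2 by 1.03 and the bypass polymerase gene Polh by 1.05 in log2 CPM), and 0 were called higher in replicate 2, against the backgrounds of 2.34% and 2.09% given above.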

How the data were processed

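Deposited tables per library, of genes and of transcripts, were used. Per the file headers, the authors gave expected counts, TPM, FPKM and, per transcript, a percent of the gene. The labels name mm10, and a deposited text file names GENCODE M4. The aligner, the quantifier and the use of strand are not given in any source used here. The authors' TPM bounds, of unstated level, cover error within 1 library. Identifiers without version were matched to GENCODE M21 for symbols, types and coordinates (42462 of 43346). Members and lists were chosen with earlier results of these data known, and all 44 members could be named. Of each related list, the 2 highest and 2 lowest genes and those called could be. Expected counts were rounded and scaled with edgeR 4.0.16 (TMM, filterByExpr, prior count 2), which left 13546 genes with a biological coefficient of variation of 21.8%. DESeq2 1.42.0 gave alternative size factors. Pair ratios used a pseudocount of 0.01 TPM. A count of 0 allows 0.0377 and 0.0459 CPM, counting error only. Steps were tested on simulated data. Proteins were not analysed here.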

Additional observations from a re-analysis of the deposited data

How the results depend on the processing

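No order between the classes reversed with gene TPM, FPKM, CPM, means or either library alone. With coding transcripts alone, the clamp with its loader passed the helicase. Helicase minus licensing (1.92) was 1.90 with FPKM, 3.08 with CPM not corrected for length, 1.67 as a difference of means, 1.56 with protein-coding transcripts alone, and 1.89 to 1.90 with 1 library left out. Without length correction, polymerase minus licensing (1.11) was 1.46, clamp and loader minus licensing (1.73) was 1.89, and helicase minus polymerase (0.81) was 1.62. Helicase minus polymerase was 0.61 as a difference of means and 0.49 with coding transcripts alone, and clamp and loader minus licensing was 2.05 with coding transcripts alone. The cause of these shifts was not tested. The count of called subunit pairs (44) lay between 43 and 45 under every alternative run. With coding transcripts alone it excludes the Rfc1 pairs. A similar count does not mean the same pairs, since pairs crossed 2-fold in both directions on the coding scale. Mcm3 against Mcm4 went from 4.27-fold to 1.11-fold, and Orc1 against Orc2 from 1.28-fold to 6.62-fold. All 44 genes stayed detected at a TPM of 0.5, and 36 at a TPM of 5. The background share given above is for a TPM of 1, and none is given for these thresholds. With 2 of the E2F forms alone, 10 of 45 promoters held one (22.2%, against 0.813% of all and 1.70% for detected protein-coding genes). With 1 start per gene, chosen as an alternative after seeing the data, 15 of 36 did (41.7%). The 4 forms were then in 2.32% of all and 4.56% for detected protein-coding genes. No paired analysis was possible because there is 1 group. Leaving out 1 library removes the spread between libraries and any difference between them.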
